A study of Rattus norvegicus with 6 samples.

Results

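Retinoic acid synthesis, binding and response in the heart primordium was described here through 9 genes, Aldh1a2, Cyp26a1, Cyp26b1, Rara, Rarb, Rarg, Crabp1, Crabp2 and Stra6. Members were all non-control probes on the arrays whose gene name was one of these symbols. This gave 9 probes for 8 genes, with 2 probes for Rarg and none for Rarb, out of 30367 probes on the array. Heart primordia of Wistar rat embryos at embryonic day 10 were sorted as before the heartbeat (pre-heartbeat group, 3 arrays) or after it had begun (post-heartbeat group, 3 arrays). The study assigned the groups by the shape of the primordium, flat or raised, and the number of somites, following earlier work on the start of contraction. Heartbeat and this developmental stage therefore cannot be told apart here. Neither group had a treatment or an altered allele, and 10 ng of total RNA was labelled for each array. The replicates are described as biological, but how many primordia or litters each array holds is not given in the sources used here, and the tissue was taken whole, without separating the first and second heart fields.

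Retinoic acid is made from retinol, which Stra6 carries into cells and Aldh1a2 converts in its last oxidation step in the embryo. Crabp1 and Crabp2 bind it in the cytoplasm, the nuclear receptors Rara, Rarb and Rarg switch genes on or off with it, and Cyp26a1 and Cyp26b1 degrade it. In the early embryo this signal comes from the posterior mesoderm and helps to set the posterior limit of the heart field and the identity of the inflow region.

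Cyp26a1 is the member whose groups differed most, so its sequences are shown. The probe is given as the array files list it, and the promoter window is the RefSeq sequence of the GRCr8 build, from 250 bases before the gene start to 50 bases after it. Capitals mark 2 half-sites, which are the letters TGAACT on this strand.
Cyp26a1 probe (rn4, chr1:241945651-241945710, minus strand): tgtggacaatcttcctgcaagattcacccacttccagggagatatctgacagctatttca
Cyp26a1 promoter (GRCr8, chr1:244883572-244883871, plus strand): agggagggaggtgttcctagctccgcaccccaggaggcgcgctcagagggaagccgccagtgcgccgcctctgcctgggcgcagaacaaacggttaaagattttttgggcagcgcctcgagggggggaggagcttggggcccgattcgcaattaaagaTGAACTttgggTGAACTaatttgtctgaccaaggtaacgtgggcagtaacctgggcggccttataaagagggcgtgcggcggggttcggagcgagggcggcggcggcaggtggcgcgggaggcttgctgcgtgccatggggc

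The array files place the Cyp26a1 probe on the minus strand of rn4, whereas RefSeq places the gene on the plus strand of GRCr8. The other 8 of the 9 member probes lie on the strand of their gene, and the difference for Cyp26a1 was not resolved here. No annotation of rn4 was used, so whether a probe lies in coding sequence or in an untranslated region is not stated.

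Retinoic acid receptors bind paired half-sites, and the windows were searched on both strands for 2 copies in the same direction, 5 bases apart, of the letters AGGTCA or of the variants with T for the third letter (AGTTCA), with G for the first letter (GGGTCA) or with both changes (GGTTCA). In Cyp26a1 the pair read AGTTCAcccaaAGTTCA on the reverse strand, ending 76 bases before the start. Among the 9 members, 2 had such a pair, the other being Rarb, whose window held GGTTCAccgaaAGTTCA. The pair was present in 128 of 33469 promoter windows, or 0.382%, and in none of the 38 genes of the wider pathway lists that had a window. With 2 bases between the copies, no member had a pair, against 0.17% of all windows. These matches describe letters and show no binding.

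Signals are given as log2 of the processed intensity less the array's own 75th percentile, so that 0 is the 75th percentile and 1 unit is a doubling. Values of different probes are not compared with each other, except where linear signals of a marker list are summed. Such sums, and a gene's share of them, describe probe signals and not amounts of transcript. All 9 member probes were tested, which required a signal well above background throughout 1 group or the other, and 7 reached this on all 6 arrays. The 75th percentile lay between 1146 and 1702 intensity units over the 6 arrays.

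The arrays lay on 2 slides that were scanned separately, and each slide held both groups. Pre-heartbeat replicate 1 shared slide 1 with the first and second post-heartbeat replicates, and the remaining 3 arrays shared slide 2. Comparisons within a slide therefore set 1 array against 2. In limma with group and slide as terms, 3148 of 19299 tested probes, or 16.3%, differed between the slides at an adjusted p under 0.05. Each member therefore has a second value, from limma with slide as a blocking term.

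In limma on the groups alone, 27 of 19299 tested probes (0.140%) passed an adjusted p of 0.05, and 0 of the 9 member probes did. One member probe, that of Cyp26a1, passed an unadjusted p of 0.05, against 7.01% of all tested probes. With slide as a blocking term, 1 of the 9 member probes passed, against 1.62% of all tested probes. The median difference was 0.16 over the member probes and -0.033 over all tested probes, or -0.1 and -0.017 with the slide as a block. By sign, 5 member probes had a higher mean in the post-heartbeat group and 4 had a lower one. Of the higher ones, Cyp26b1 and the second Rarg probe met the background rule through the post-heartbeat group only. Without pre-heartbeat replicate 2 their differences were -0.39 and -0.06. Both the sign count and the member medians include these probes.

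**Figure D1:**
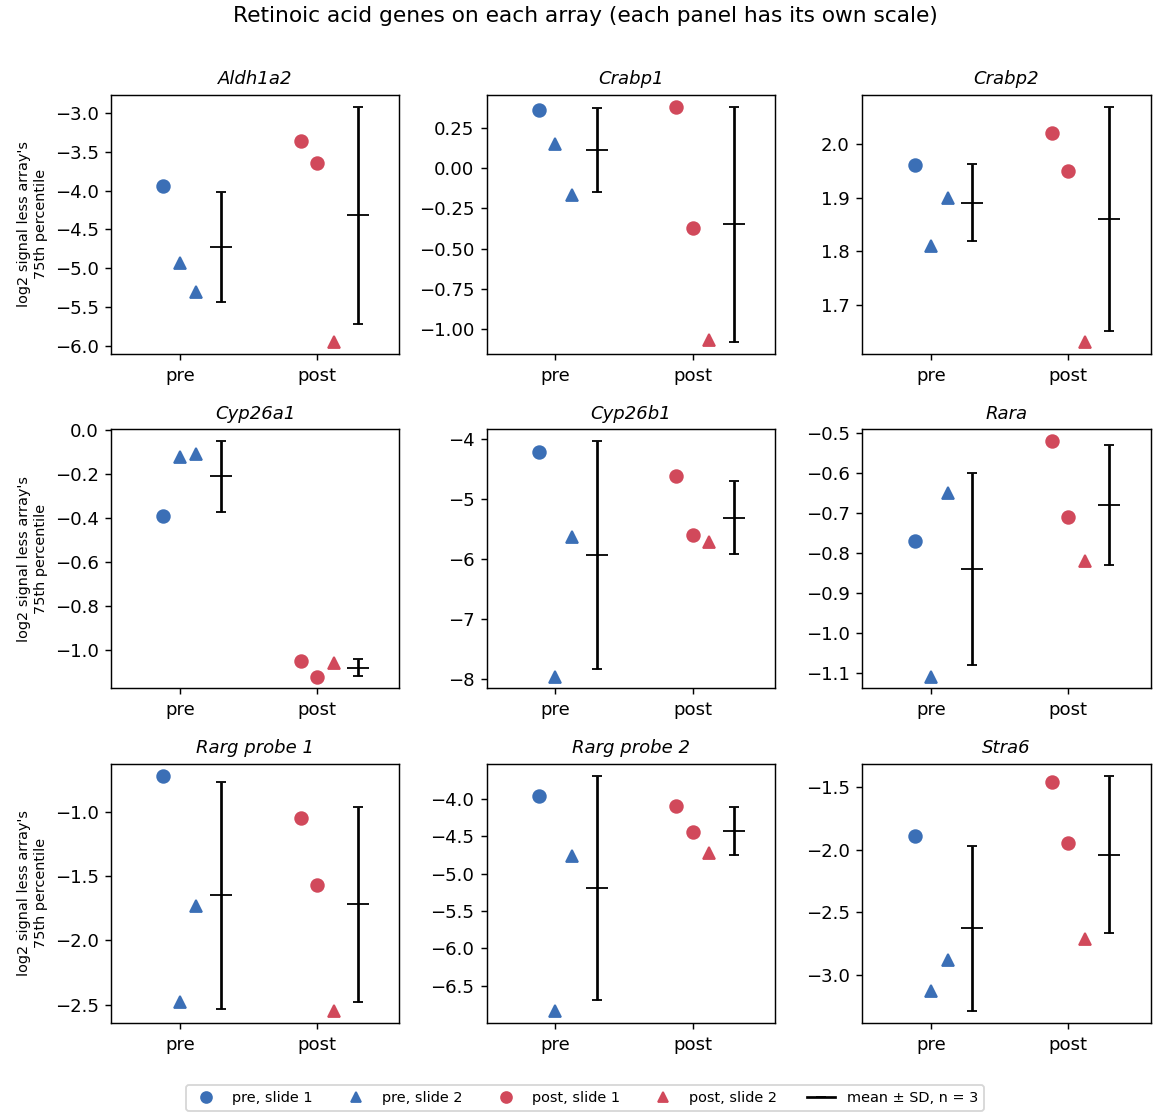
Log2 signal less the array's 75th percentile of each member probe on the 6 arrays, by group (blue pre-heartbeat, red post-heartbeat) and slide (circles slide 1, triangles slide 2), with the mean and SD of 3 arrays in black and an axis of its own in each panel. Cyp26a1 is the 1 probe whose groups do not overlap, with pre-heartbeat values from -0.39 to -0.11 and post-heartbeat values from -1.12 to -1.05. Over the tested probes with a value on every array, 11.5% had no overlap, in either direction.

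Cyp26a1, which degrades retinoic acid and is itself induced by it, stood at -0.39, -0.12 and -0.11 on the pre-heartbeat arrays and at -1.05, -1.12 and -1.06 on the post-heartbeat arrays. Every post-heartbeat array was below every pre-heartbeat array, with a gap of 0.66. Over the tested probes with a value on every array, 11.5% had such a separation in either direction. In this direction the share was 6.14%. Of the 9 member probes, 1 had it. The group means were -0.21 ± 0.16 and -1.08 ± 0.039 (SD, n = 3 each).

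The post-heartbeat level of Cyp26a1 was thus 1.83-fold lower, with a 95% interval from 1.45 to 2.31, and a log2 difference of -0.87 (SE 0.14). The adjusted p in limma was 0.0999, which did not pass the threshold, and the gene ranked 88 of 19299 by p. An exact two-sided permutation test over the arrays gave p = 0.1, the smallest that 3 arrays against 3 allow. The study's methods selected genes higher in the post-heartbeat group by at least 1.5 fold, with an unadjusted p under 0.05 in a Tukey test. That rule takes no lower gene. With its thresholds applied in either direction, Cyp26a1 was selected, as were 3.04% of tested probes, or 1.15% in the direction of Cyp26a1.

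Blocking on slide, limma gave Cyp26a1 a difference of -0.82 (SE 0.13) at an adjusted p of 0.031. Of 18 alternatives with an adjusted p, this was the 1 that passed, and the others gave 0.0692 to 0.493. The difference was -0.7 within slide 1 and -0.94 within slide 2, each with 1 array in 1 of the groups. The slides themselves differed by 0.15 for this probe, at an adjusted p of 0.465 in limma.

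Cyp26b1, the second retinoic acid hydroxylase, stood at -4.21, -7.96 and -5.63 before the heartbeat and at -4.61, -5.6 and -5.71 after it. The groups overlapped widely. Pre-heartbeat replicate 2, the lowest, was not well above background. The difference was 0.62 (SE 0.87) with an adjusted p of 0.866 in limma, and -0.39 without pre-heartbeat replicate 2. The 95% interval of -1.44 to 2.69 left a change of either sign possible.

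Aldh1a2, the main retinoic acid-making enzyme of the early embryo, stood at -3.94, -4.93 and -5.31 in the pre-heartbeat group and at -3.36, -3.64 and -5.95 in the post-heartbeat group. The 3 highest of these 6 values were those of slide 1, and the lowest was post-heartbeat replicate 3 on slide 2. The difference between the groups was 0.41 (SE 0.7, 95% interval -1.25 to 2.07), with an adjusted p of 0.88 in limma. Blocking on slide gave -0.2, and the difference turned from 0.43 within slide 1 to -0.83 within slide 2. Slide 2 was lower than slide 1 by a log2 difference of -1.82 (SE 0.28), with an adjusted p of 0.00583 in limma.

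Stra6, the membrane receptor that takes up retinol, stood at -1.89, -3.13 and -2.88 before the heartbeat and at -1.46, -1.95 and -2.71 after it. Again the slide 1 arrays held the 3 highest values. The group difference was 0.59 (SE 0.41), with an adjusted p of 0.866 in limma, and 0.24 with the slide as a block. The post-heartbeat arrays were higher by 0.18 within slide 1 and by 0.29 within slide 2. The slide difference was -1.06, with an adjusted p of 0.00788 in limma.

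Crabp1, a cytoplasmic carrier linked to retinoic acid breakdown, stood at 0.36, 0.15 and -0.17 in the pre-heartbeat group and at 0.38, -0.37 and -1.07 in the post-heartbeat group. The groups overlapped through post-heartbeat replicate 1, which had the highest value of all. The difference was -0.47 (SE 0.36), with an adjusted p of 0.866 in limma. With the slide as a block it was -0.71 (SE 0.25) and its own 95% interval ran from -1.28 to -0.13, but the adjusted p was 0.349. The file gives this probe a span of 4309 bases of rn4 on chromosome 8 although it is 60 bases long, so that its sequence is split in the genome.

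Crabp2, which passes retinoic acid to the receptors, stood at 1.96, 1.81 and 1.9 in the pre-heartbeat group and at 2.02, 1.95 and 1.63 in the post-heartbeat group. All 6 arrays lay close together. The difference was -0.02, with a 95% interval of -0.39 to 0.34 and an adjusted p of 0.969 in limma.

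Rara, the widely expressed receptor, stood at -0.77, -1.11 and -0.65 in the pre-heartbeat group and at -0.52, -0.71 and -0.82 in the post-heartbeat group. The difference of 0.16 had a 95% interval of -0.25 to 0.57 and an adjusted p of 0.866 in limma. Of all member probes, Rara and Crabp2 had intervals close to that of Cyp26a1 in width, and both included 0.

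Rarg was measured by 2 probes. The first stood at -0.72, -2.48 and -1.73 in the pre-heartbeat group and at -1.05, -1.57 and -2.55 in the post-heartbeat group. The difference was -0.08 (SE 0.52), with an adjusted p of 0.971 in limma, and the slide difference was -1.31, with an adjusted p of 0.0107.

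The second Rarg probe stood at -3.96, -6.84 and -4.77 in the pre-heartbeat group and at -4.1, -4.44 and -4.73 in the post-heartbeat group. Pre-heartbeat replicate 2 was not well above background. The difference was 0.77 (SE 0.67), with an adjusted p of 0.866 in limma, and -0.06 without that array. The 2 probes thus gave differences of opposite sign, and neither passed the test.

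**Figure D2:**
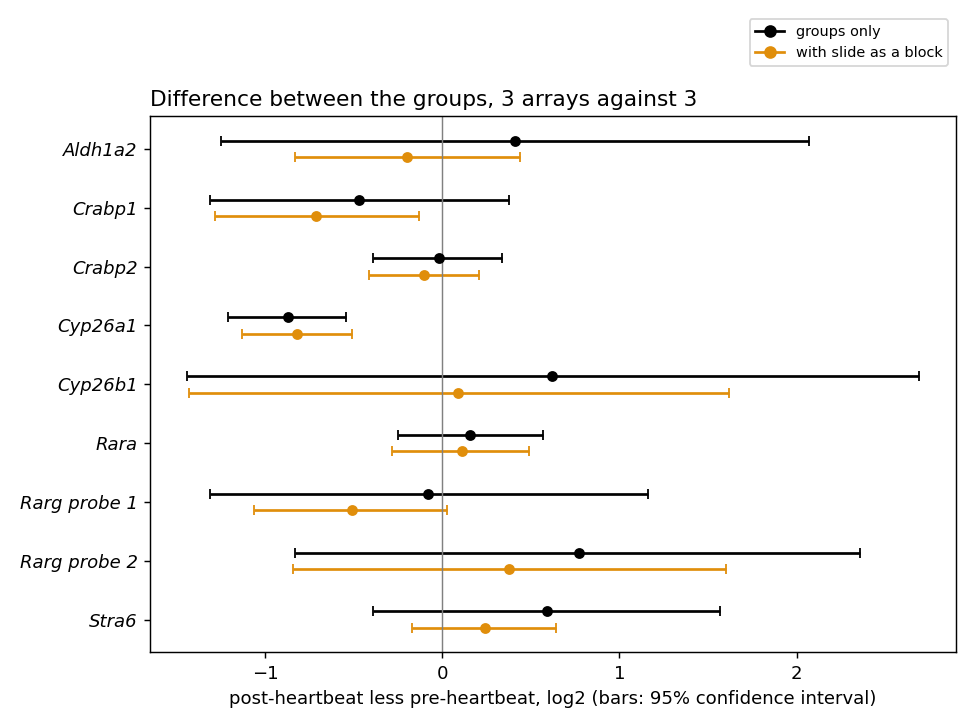
Log2 difference of the post-heartbeat from the pre-heartbeat group for each member probe with its 95% confidence interval, from limma on the groups alone (black) and with the slide as a block (orange), 3 arrays against 3. The Cyp26a1 interval excludes 0 in both fits (-1.21 to -0.54 and -1.13 to -0.51), the Crabp1 interval only with the block (-1.28 to -0.13), and these intervals are not adjusted for the number of probes.

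The slides separated more member probes than the groups did. The slide term passed for 3 of the 9 member probes, Aldh1a2, Stra6 and the first Rarg probe, against 16.3% of all tested probes. In 8 of the 9, slide 1 was the higher one, while 42% of all tested probes were higher on slide 1. Cyp26a1 was the exception. What differed between the slides apart from their scanning is not stated in the sources used here, and its part in these values was not tested.

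**Figure D3:**
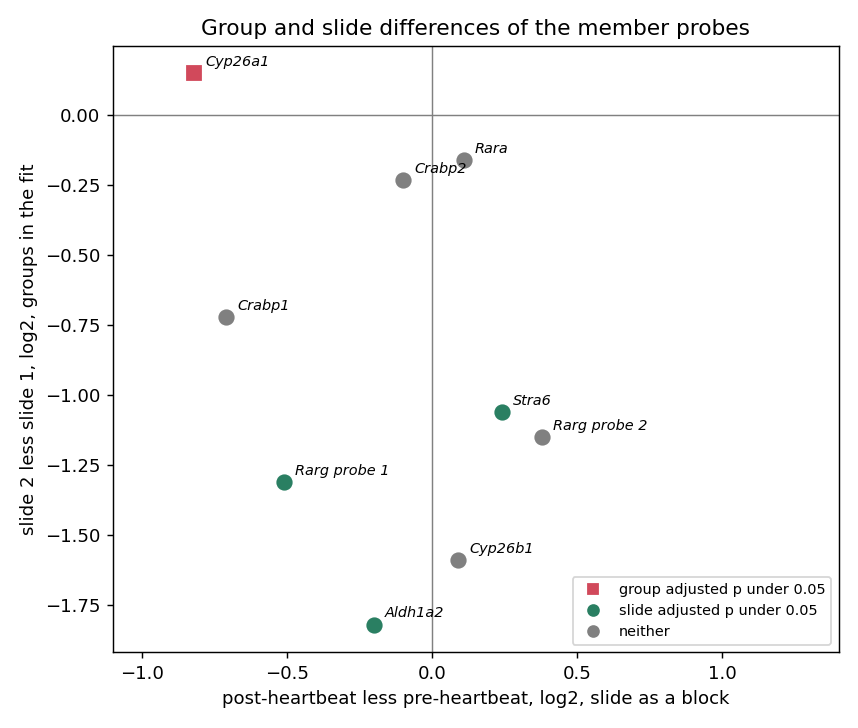
For each member probe, the log2 difference between the groups blocked on slide (horizontal axis) against the log2 difference between the slides in the same fit (vertical axis). Cyp26a1 lies at -0.82 and 0.15, whereas Aldh1a2 lies at -0.2 and -1.82.

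Rarb, the receptor that retinoic acid itself induces in many tissues, has no probe under that name. A probe for the predicted transcript LOC684994, which the array describes as similar to Rarb, lay outside the rule. It stood at -2.33, -1.94 and -2.11 in the pre-heartbeat group and at -2.48, -2.72 and -2.3 in the post-heartbeat group, a difference of -0.37 with an adjusted p of 0.813 in limma.

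Of 57 other genes of retinoid metabolism, receptor partners, retinoic acid targets and heart field genes that it restrains, 53 had a probe and 37 were tested. In limma, 0 of the 37 passed an adjusted p of 0.05 in either direction, against 0.140% of all tested probes. An unadjusted p under 0.05 was found for 6, against 7.01%, and the median difference was -0.056. With slide as a blocking term 1 passed, against 1.62%, and the rule of the methods selected 1 as higher in the post-heartbeat group, against 1.89% of all tested probes in that direction.

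By role, the median difference was -0.13 over 10 tested genes of retinol uptake, storage and metabolism, and -0.01 over 14 receptor partners and coregulators. It was 0.04 over 9 genes induced by retinoic acid. Over 4 heart field genes it was 0.21, and -0.18 with the slide as a block.

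Tgm2, a transglutaminase that retinoic acid induces, stood at -0.52, -0.18 and 0.06 in the pre-heartbeat group and at 0.5, 0.64 and 0.91 in the post-heartbeat group, without overlap. The difference was 0.9 (SE 0.2), with an adjusted p of 0.203 in limma, and 1.03 with an adjusted p of 0.0183 when blocked on slide. This was the 1 pathway gene to pass with the block, and over all its alternatives with an adjusted p the values ran from 0.0183 to 0.69.

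**Figure D4:**
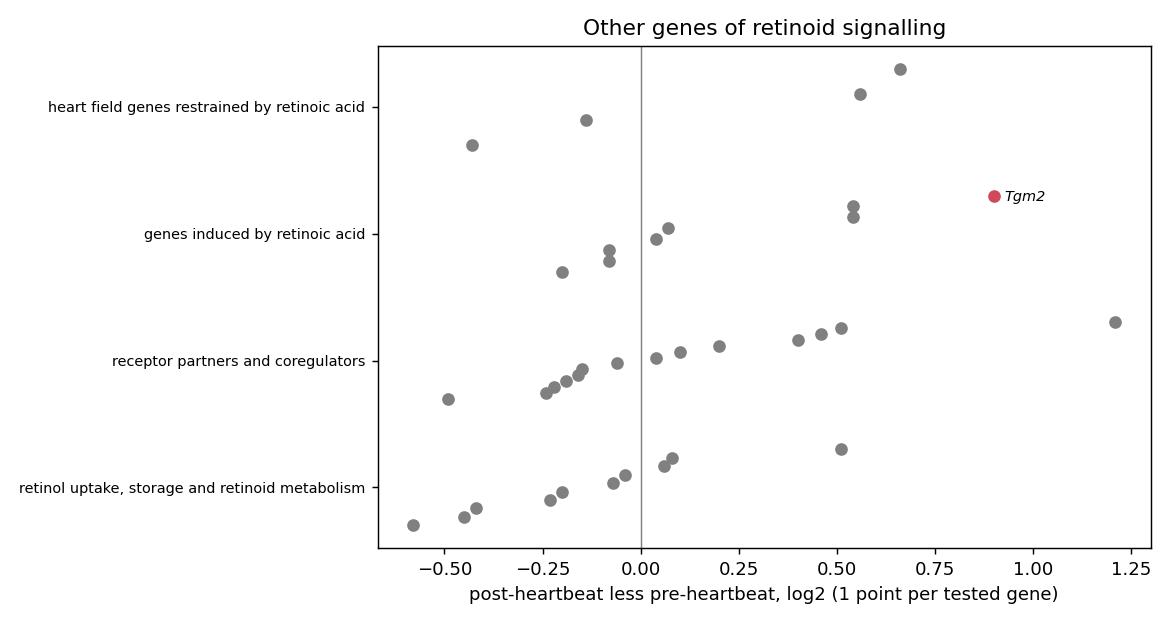
Log2 difference of the post-heartbeat from the pre-heartbeat group for the pathway genes shown, by list, with Tgm2 (0.9) in red. No gene here passed an adjusted p of 0.05 without the slide block.

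Of the markers of other tissues, only Otx2 of the neural ectoderm list passed an adjusted p of 0.05 in limma. Like Cyp26a1, it was lower in the post-heartbeat group. Of the 10 genes of the neural ectoderm list 4 were tested and all 4 had a lower mean in the post-heartbeat group. In limma 1 passed, and 2 did when blocked on slide. The sum of their linear signals relative to the 75th percentile ranged from 6.74 to 7.57 in the pre-heartbeat group and from 2.57 to 3.07 in the post-heartbeat group. Otx2 made up 69.3% to 88.2% of this sum on each array, and without it the sums overlapped, at 0.797 to 1.49 and 0.556 to 0.941. Otx2, a forebrain and midbrain transcription factor, stood at 2.61, 2.57 and 2.73 and then at 1.09, 0.96 and 1.19, a difference of -1.56 with an adjusted p of 0.0199 in limma. In the same fit Hesx1 differed by -1.56 with an adjusted p of 0.0829, Sox2 by -0.21 with 0.897 and Pax2 by -0.23 with 0.866. The defining neural genes Sox1, Pax6, Six3, Zic1, Egr2 and En1 were not tested, although 9 of the 10 genes of the list had a probe. Genes with a probe were left untested where none was well above background throughout either group. Markers of other lists differed in both directions. With the slide as a block, limma gave Snai2 of the neural crest list -1.21 (adjusted p 0.0216), and Sox10 of that list -0.11. It gave Epor of the erythroid list 1.18 (adjusted p 0.0397), and Hbz, Klf1 and Alas2 of that list 0.89, -0.02 and -0.43. On the groups alone, Prrx1 of the lateral plate mesoderm list differed by -1.67 (adjusted p 0.266 in limma). Hand1 and Bmp4 of that list differed by 0.22 and -0.16. Tbx18 of the proepicardium and sinus venosus list differed by 1.61 (adjusted p 0.314 in limma), and Tcf21 of that list by -0.52. Tbx18 met the background rule through the post-heartbeat group only. The part of neural tissue in the Cyp26a1 difference was not tested, and fewer cells of a type and less RNA per cell cannot be told apart in these samples.

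The cardiac list, by contrast, was well above background throughout. All 9 of its genes were tested and all 9 had higher means after heartbeat initiation, the median difference being 0.45, but 0 of them passed in limma and 1 did when blocked on slide. Their summed signal ranged from 336 to 583 before the heartbeat and from 603 to 737 after it. Actc1, Tnnt2, Myl7 and Myh6 had the highest signals of the list and weigh most in this sum. Actc1 and Tnnt2 overlapped between the groups, and Myl7 and Myh6 did not. The cardiac sum without these genes is not given here. The sum of the 6 yolk sac endoderm genes ranged from 49.9 to 52.2 and then from 31.4 to 41.6. Ttr made up 64.2% to 88.2% of this sum, and without it the sums overlapped, at 5.88 to 18 and 7.33 to 12.5. Of the 6 genes, 2 had a higher mean in the post-heartbeat group, and 0 passed in limma. The 6 endothelial genes had a median difference of -0.25.

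The 3 genes whose pattern over the 6 arrays was most like that of Cyp26a1 were Serpina11, Enpp3 and Slc29a1, with Pearson correlations of 0.9952, 0.9943 and 0.9915. They were the closest among all tested probes, share the group difference and the arrays with Cyp26a1, and are given as a description.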

How the data were processed

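The deposited scanner files hold 1-colour Agilent rat arrays, 1 per sample, with the processed intensity that the authors obtained with Agilent Feature Extraction 10.7.3.1 (rn4 coordinates). The deposited value table holds ratios that the authors made by a 75th percentile shift and a baseline set to the median of all samples, and it was used only as an alternative. Log2 of the intensity less the array's 75th percentile was computed after removing control and outlier spots, and replicate spots were averaged per probe. A probe was tested if well above background in at least 0.5 of its spots on all 3 arrays of a group. Groups were compared with limma 3.58.1 in R 4.3.3 over 19299 probes, with Benjamini-Hochberg adjustment, and scripts were tested on simulated data.

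Alternatives were the replicate number or slide as a block, each slide alone, normexp (offset 50), quantile normalization, other filters and an intensity trend. Others were leaving out each array and the methods' Tukey selection (1.5 fold), applied here in either direction. Named genes were all members, the pathway genes past the threshold or in the methods' selection, with or without the slide block, and the 3 genes most like the leading member. The other genes given are marker genes and an unlisted probe resembling Rarb. Members and lists were chosen with earlier results of these data known. The 6 arrays limit the precision. One tested pathway gene is counted in the lists, but its own result is neither reported nor plotted here.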

Additional observations from a re-analysis of the deposited data

How the results depend on the processing

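Member probes other than that of Cyp26a1 kept an adjusted p above 0.05 under every alternative that gives one, and Cyp26a1 was lower in the post-heartbeat group in all of them, between -0.96 and -0.7 on the log2 scale. The count of member probes called was 0 in limma, 1 with the slide block and 1 in the methods' selection. The sign turned for Aldh1a2 with the slide block (-0.2), within slide 2 (-0.83) and without post-heartbeat replicate 1 (-0.07), and for Crabp2 within slide 1 (0.03), without pre-heartbeat replicate 1 (0.01) and without post-heartbeat replicate 3 (0.09). It also turned for Cyp26b1 within slide 1 (-0.9) and without pre-heartbeat replicate 2 (-0.39), for the first Rarg probe without pre-heartbeat replicate 1 (0.38) and without post-heartbeat replicate 3 (0.34), and for the second Rarg probe within slide 1 (-0.31) and without pre-heartbeat replicate 2 (-0.06). The cause was not tested.

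Over all tested probes, 23 were higher and 4 lower in the post-heartbeat group. The higher count was 223 with the slide block, 0 within slide 1, 179 within slide 2, 43 with normexp, 11 with quantile normalization, 12 with the percentile over probes above background, 1 without a filter, 10 with the authors' ratios, 38 with an intensity trend, 365 in the methods' selection and 0 in the methods' test after Benjamini-Hochberg. The lower count was 89, 0 and 138 in the 3 slide settings, 7 with normexp, 0 without a filter, 7 with a trend, 222 in the methods' selection and 0 after Benjamini-Hochberg. Leaving out 1 array gave 0 to 1 in each direction. For the 5 probes whose sign turned, leaving out 1 array gave -0.07 to 1.22 for Aldh1a2, -0.1 to 0.09 for Crabp2, -0.39 to 1.49 for Cyp26b1, -0.49 to 0.38 for the first Rarg probe and -0.06 to 1.38 for the second. Without changing sign, Crabp1 (-0.47) was -0.83 if post-heartbeat replicate 1 was left out and -0.11 if replicate 3 of that group was, Stra6 (0.59) ran from 0.3 without post-heartbeat replicate 1 to 0.96 without pre-heartbeat replicate 1, and Rara (0.16) ran from 0.03 without pre-heartbeat replicate 2 to 0.25 without pre-heartbeat replicate 3. Pathway genes called higher were 0 in limma, 1 with the slide block and 1 in the methods' selection. Those called lower were 0 in limma and 1 in the methods' selection.

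With the replicate number as a block, 95 probes were higher and 49 lower, and Cyp26a1 had a difference of -0.87 with an adjusted p of 0.0867 in limma. The deviations of same-numbered arrays correlated at 0.65, -0.28 and 0.49 for replicates 1, 2 and 3. The replicate 1 arrays shared slide 1 and the replicate 3 arrays slide 2, while the replicate 2 arrays lay on different slides. These correlations therefore cannot decide whether the numbers pair the samples. Cyp26b1 and the second Rarg probe were not well above background on 1 array.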
